A study of Bos taurus with 20 samples.

Results

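The Toll-like receptors (TLR) were examined in the blood of pregnant recipients on day 63, as 10 genes chosen by symbol, TLR1 to TLR10. Of these 10 symbols, 9 were matched by name to an Entrez identifier among the 37063 genes counted. TLR1 was not matched, because the gene table gives this symbol only as another name of TLR6 and of TLR10, and no value is reported for it. The matched genes comprised 5 receptors of the cell surface (TLR2, TLR4, TLR5, TLR6 and TLR10) and 4 of the endosome (TLR3, TLR7, TLR8 and TLR9). All 9 had at least 10 counts in at least 5 cows and were therefore tested.

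The 20 cows formed 1 condition. All of them carried a female fetus of a beef breed, from an embryo that was produced in vitro with X-sorted semen and transferred to the recipient. The birth weight (BW) of the calf, from 30 to 72.5 kg with a median of 44 kg, was the only variable compared. The study asked whether maternal blood at this stage carries information on the weight of the calf. Each cow is named by the weight of its calf, so that the 56 kg cow bore a calf of 56 kg. The 72.5 kg cow was left out of the association with BW, which leaves 19 cows and calves of up to 56 kg. This follows the study, which left that calf out of its differential expression analysis as an outlier but kept it when predicting BW. The study describes the recipients as Angus cows of mixed age in its list of samples and as lactating dairy cows in its methods.

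Toll-like receptors are sensors of microbial molecules on innate immune cells and B cells. The surface receptors bind mainly lipids and proteins of bacteria, whereas the endosomal receptors bind nucleic acids after the chaperone UNC93B1 has carried them to the endosome. Apart from TLR3, they signal through the adaptor MYD88, and TLR3 and TLR4 use the adaptor TICAM1, ending in NF-kappaB and interferon regulatory factors. In blood the receptors are unevenly distributed, with TLR2, TLR4 and TLR8 high in neutrophils and monocytes and TLR9 and TLR10 in B cells.

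Total counts per cow lay between 24632077 and 39892111, with a median of 33412740. Levels are given as CPM (read counts scaled to a common library size) after TMM scaling between libraries. They were compared between cows for each gene and not between genes, since transcript lengths were not used here. Markers of neutrophils (7 of 9 listed), monocytes (6 of 7), B cells (9 of 9), T cells (9 of 9) and platelets (11 of 11) passed the same count minimum, while the monocyte marker CX3CR1 had no count in any cow.

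Among the surface receptors, TLR2, which binds bacterial lipoproteins, had 50.9 CPM in the lowest cow (46 kg), a median of 74.0 CPM and 85.6 CPM in the highest cow (37 kg). TLR4, the receptor of lipopolysaccharide, had 23.6 CPM in the lowest cow (72.5 kg), a median of 30.6 CPM and 37.1 CPM in the highest (40 kg). TLR5, the receptor of flagellin, had 2.56 CPM in the lowest cow (53 kg), a median of 5.10 CPM and 7.28 CPM in the highest (37 kg). These 3 receptors thus had their lowest values in different cows. TLR6, the partner of TLR2 in binding diacylated lipopeptides, had 55.1 CPM in the lowest cow (47.4 kg), a median of 62.0 CPM and 77.4 CPM in the highest (41.5 kg). TLR10, the least understood receptor of the family, had 27.1 CPM, 36.4 CPM and 54.6 CPM, respectively. TLR6 and TLR10 shared their lowest and their highest cow, and the 49.5 kg cow was the next highest for both, with 73.7 CPM of TLR6 and 49.5 CPM of TLR10.

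Among the endosomal receptors, TLR3, which senses dsRNA, had 8.03 CPM in the lowest cow (50 kg), a median of 10.5 CPM and 14.5 CPM in the highest (47.4 kg). TLR7, a sensor of single-stranded RNA, had 37.2 CPM in the lowest cow (56 kg), a median of 49.4 CPM and 61.0 CPM in the highest (43 kg). TLR8, its close relative, had 49.0 CPM in the lowest cow (46 kg), a median of 81.2 CPM and 98.0 CPM in the highest (37 kg). The 46 and 56 kg cows had the lowest values of TLR2, TLR7 and TLR8 alike. The 56 kg cow had 52.7 CPM of TLR2 and 55.3 CPM of TLR8, and the 46 kg cow had 40.9 CPM of TLR7. TLR9, the sensor of unmethylated CpG DNA, had 3.003 CPM in the lowest cow (45 kg), a median of 4.59 CPM and 7.21 CPM in the highest (43 kg).

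**Figure D1:**
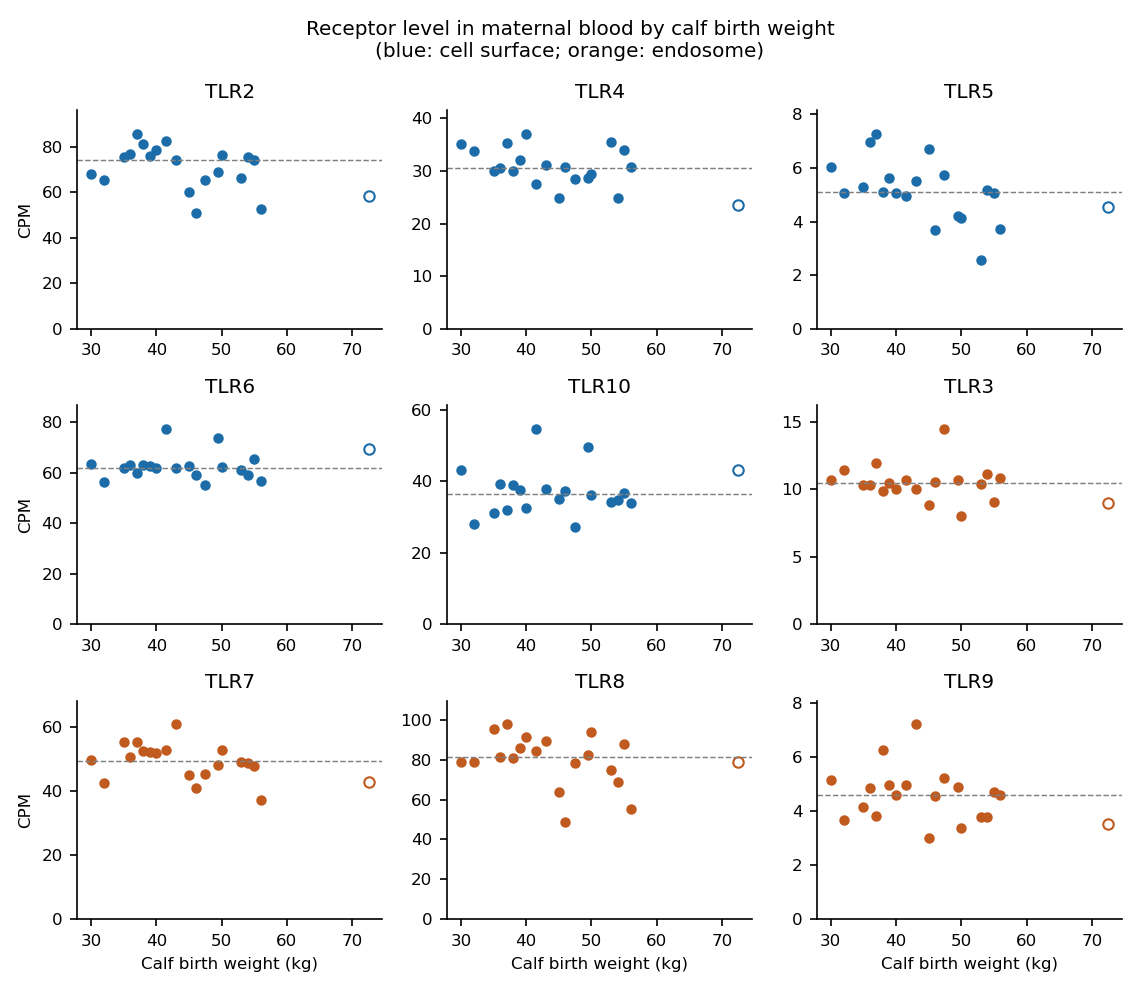
Level of each receptor (CPM, vertical axis from 0) against calf BW (kg, horizontal axis), with 1 point per cow, the median over 20 cows as a dashed line and the 72.5 kg cow as an open circle. TLR5 lies between 2.56 and 7.28 CPM with its lowest value at 53 kg, and the low cows of TLR2, TLR7 and TLR8 at 46 and 56 kg are the same.

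The spread between cows was narrowest for TLR6, at 62.8 ± 5.46 CPM (SD, n = 20), with the highest cow at 1.40 times the lowest. It was widest in relative terms for TLR5, at 5.13 ± 1.15 CPM (SD, n = 20), with a ratio of 2.84. On the log2 scale the SD was 0.12 for TLR6, 0.17 for TLR7, 0.18 for TLR3 and TLR4, 0.21 for TLR2, 0.25 for TLR10, 0.26 for TLR8, 0.30 for TLR9 and 0.35 for TLR5, and the median SD over all genes tested was 0.225. TLR6 was thus among the steadier genes, since 19.8% of genes had a smaller SD, and TLR5 varied more than 64.3% of genes. TLR5 and TLR9 had the fewest counts, from 76 to 247 and from 88 to 257 per cow. Counting error alone was on average 7.91% of the TLR5 level and 8.37% of the TLR9 level, against a coefficient of variation between cows of 22.4% and 21.9%. For TLR6 these values were 2.22% and 8.69%. Relative to the spread between cows, counting error was largest for TLR3 (5.46% against 12.7%).

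The receptors were then compared with each other across the 20 cows, to see whether they varied together and whether surface and endosomal receptors formed separate groups. Among the 36 pairs, 4 were correlated at an adjusted p below 0.05 (two-sided permutation test, Benjamini-Hochberg adjustment over the pairs). These pairs formed a trio of TLR2, TLR7 and TLR8 and a duo of TLR6 and TLR10. The groups did not follow the location of the receptors, because TLR2 is a surface receptor and TLR7 and TLR8 are endosomal. The median r was 0.052 over the 10 pairs within the surface class, 0.212 over the 6 pairs within the endosomal class and 0.235 over the 20 pairs between classes.

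**Figure D2:**
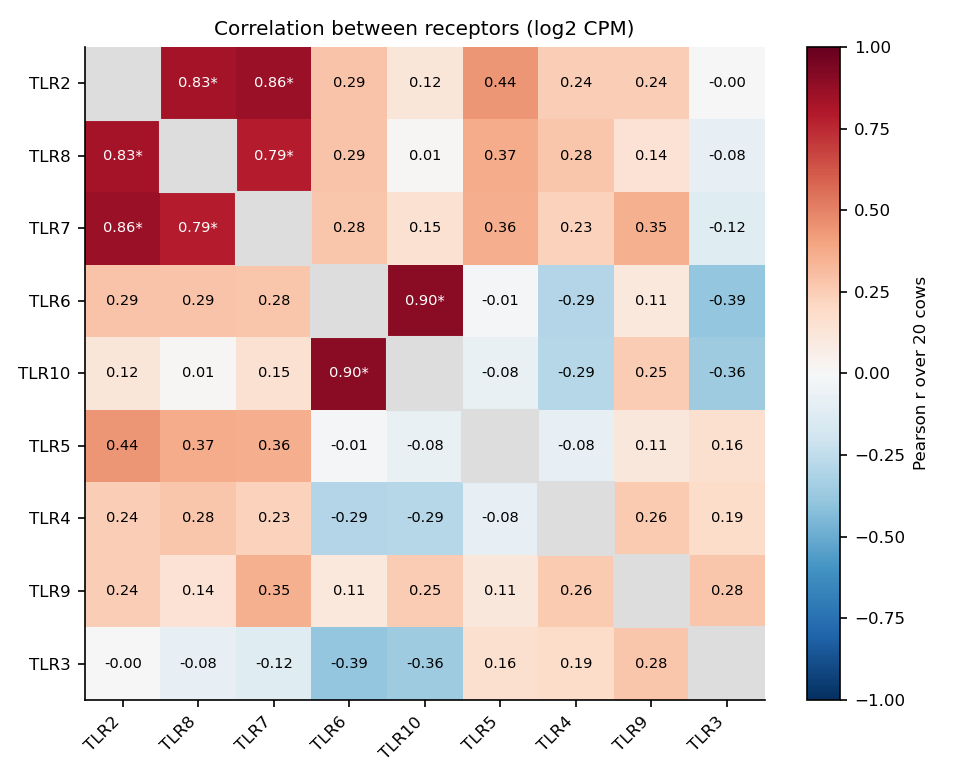
Pearson r of log2 CPM over 20 cows for each pair of receptors (both axes, color from -1 to 1), with an asterisk at an adjusted p below 0.05. A block of TLR2, TLR8 and TLR7 and the pair of TLR6 and TLR10 stand out, and the remaining pairs lie between -0.390 and 0.440.

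TLR2 and TLR7 had a Pearson r of 0.860 (permutation p = 1e-05, the smallest that the permutations can give; adjusted p = 0.00018) and a Spearman rho of 0.838 (permutation p = 1e-05). TLR2 and TLR8 had an r of 0.833 (permutation p = 4e-05, adjusted p = 0.00048) and a rho of 0.734 (permutation p = 0.00031). TLR7 and TLR8, which are neighbours in the genome, had an r of 0.788 (permutation p = 7e-05, adjusted p = 0.00063) and a rho of 0.809 (permutation p = 4e-05). Without the cows farthest from the median of the first receptor of each pair (46 and 56 kg for TLR2, 43 and 56 kg for TLR7), r was 0.765 for TLR2 and TLR7, 0.630 for TLR2 and TLR8 and 0.744 for TLR7 and TLR8. Many genes followed these receptors: 7.36% of all genes tested had an r above 0.5 with TLR2, 7.22% with TLR7 and 6.63% with TLR8. Ranked by r among the 16268 other genes, TLR7 was number 6 for TLR2, and TLR8 was number 11.

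TLR6 and TLR10 had an r of 0.899 (permutation p = 1e-05, the smallest possible; adjusted p = 0.00018) and a rho of 0.853 (permutation p = 1e-05). Without the 41.5 and 49.5 kg cows, which had the most of both, r was 0.784 (permutation p = 0.00012). TLR10 was the gene most like TLR6 among all genes tested, and TLR6 was number 4 for TLR10. The TLR6 and TLR10 genes overlap in the gene table, so reads from the shared stretch may be counted for either or for neither, and the part of this in their correlation was not tested. TLR2 likewise overlaps RNF175, and TLR3 overlaps LOC132344049. TLR2 and TLR6, which bind ligands as a pair, had an r of 0.289 (permutation p = 0.218). The lowest value was that of TLR3 and TLR6, with an r of -0.390 (permutation p = 0.0921, adjusted p = 0.452).

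**Figure D3:**
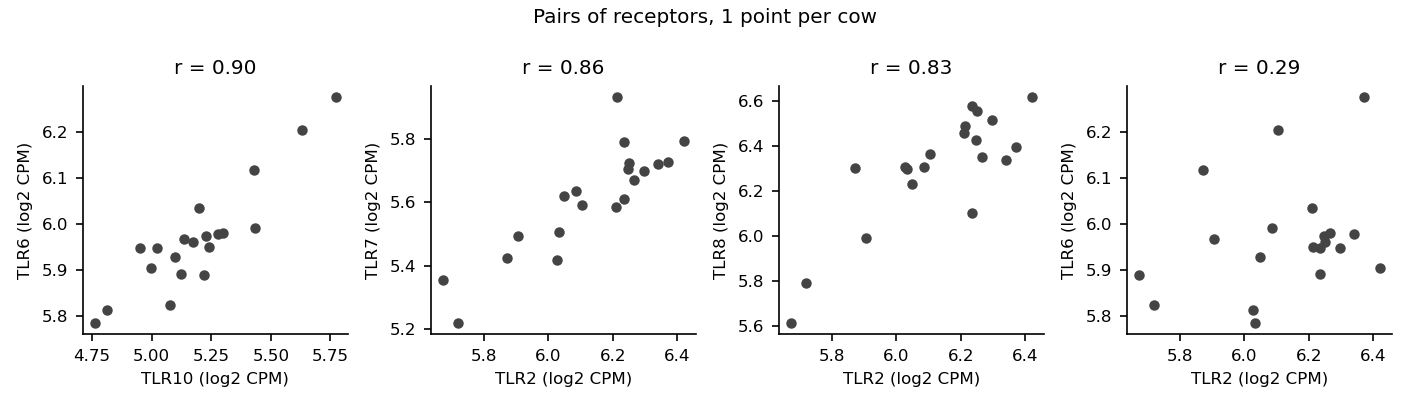
Log2 CPM of TLR6 against TLR10, and of TLR7, TLR8 and TLR6 against TLR2, with 1 point per cow (n = 20) and Pearson r above each panel. The points of the first 3 panels rise together (r from 0.833 to 0.899), and those of TLR2 and TLR6 scatter (r = 0.289).

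Since whole blood is a mixture of cells, each receptor was set against the mean z-score of 10 marker lists (90 pairs), and 12 pairs had an adjusted p below 0.05 by Pearson r, 5 by Spearman rho and 4 by both. In such bulk samples, fewer cells of a type and less RNA per cell cannot be told apart. The receptors of the trio varied with the monocyte score, and TLR2 and TLR8 also with the neutrophil score. TLR8 had an r of 0.842 with the monocyte score (permutation p = 0.00011, adjusted p = 0.00432) and of 0.706 with the neutrophil score (permutation p = 0.00089, adjusted p = 0.0089). TLR2 had an r of 0.766 with the monocyte score (permutation p = 0.00024, adjusted p = 0.00432) and of 0.748 with the neutrophil score (permutation p = 0.00021, adjusted p = 0.00432). TLR7 had an r of 0.722 with the monocyte score (permutation p = 0.00042, adjusted p = 0.0054). The Spearman rho of these 5 relations was 0.720, 0.547, 0.571, 0.611 and 0.555, with permutation p-values of 0.00071, 0.0144, 0.00971, 0.00531 and 0.0128. The adjusted p of rho was 0.0213 for TLR8 and the monocyte score and from 0.0625 to 0.0811 for the other 4, which did not pass by rank. TLR7 and the neutrophil score passed by neither measure (r = 0.577, adjusted p = 0.0557, and rho = 0.471, adjusted p = 0.171, permutation test). All 6 monocyte markers correlated positively with TLR2, TLR7 and TLR8, with r from 0.470 to 0.798, as did all 7 neutrophil markers, with r from 0.315 to 0.734.

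The monocyte markers summed to 397 CPM in the 56 kg cow and to 859 CPM in the 35 kg cow, and the 56 kg cow also had the lowest sum of neutrophil markers (2217 CPM, against a median of 3714 CPM). Without the 46 and 56 kg cows, the relation with the monocyte score had an r of 0.582 for TLR8 (permutation p = 0.0107), 0.466 for TLR2 (permutation p = 0.0523) and 0.399 for TLR7 (permutation p = 0.103). That of TLR2 and TLR7 thus had a p above 0.05 without these cows. With 1 cow left out, r with the monocyte score ranged from 0.685 to 0.853 for TLR2 and from 0.575 to 0.770 for TLR7. Without the 56 kg cow alone, the adjusted p (permutation test) was 0.089 for TLR7 and the monocyte score. For TLR8 and the neutrophil score it was 0.0583 (r = 0.604). After regression on the monocyte score, TLR2 and TLR7 still had an r of 0.691 (adjusted p = 0.0148), whereas TLR2 and TLR8 had 0.543 (adjusted p = 0.144) and TLR7 and TLR8 had 0.483 (adjusted p = 0.168), by the same permutation test. After regression on the neutrophil score, r was 0.791 for TLR2 and TLR7, 0.649 for TLR2 and TLR8 and 0.658 for TLR7 and TLR8. These pairs all passed the test (permutation test, adjusted p = 0.00072, 0.0179 and 0.0186). The same receptors were negatively correlated with the eosinophil score, at -0.744 for TLR2, -0.693 for TLR8 and -0.632 for TLR7 (permutation p = 0.00023, 0.00048 and 0.00281; adjusted p = 0.00432, 0.0054 and 0.023). The rho was -0.654 for TLR2, -0.5895 for TLR8 and -0.562 for TLR7 (permutation test, adjusted p = 0.0425, 0.0625 and 0.0742), so only TLR2 passed by rank. Without the 56 kg cow, r was -0.612 for TLR8 (adjusted p = 0.0577) and -0.516 for TLR7 (adjusted p = 0.144), and without the 46 kg cow -0.572 for TLR7 (adjusted p = 0.0754). Without both the 41.5 and 56 kg cows, r was -0.6425 for TLR2, -0.652 for TLR8 and -0.505 for TLR7 (permutation p = 0.00423, 0.00282 and 0.033). That score holds only IL5RA and SMPD3 of 7 listed markers, and CCR3 and ALOX15 had no count in any cow. TLR2 alone also passed the test with the platelet score by Pearson r (r = 0.633, permutation p = 0.0026, adjusted p = 0.023), but without the 56 kg cow r was 0.560 (adjusted p = 0.0982). Without the 46 kg cow it was 0.579 (adjusted p = 0.0754), and without both the 45 and 54 kg cows 0.676 (permutation p = 0.00221). Of the 11 platelet markers, 10 correlated positively with TLR2, and ITGA2B had an r of -0.5425.

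TLR10 varied with the markers of B cells, with an r of 0.778 (permutation p = 7e-05, adjusted p = 0.00432) and a rho of 0.871 (permutation p = 1e-05). Of the 9 B cell markers, 8 correlated positively with TLR10, with a median r of 0.724. The summed B cell markers were lowest in the 47.4 kg cow (771 CPM) and highest in the 41.5 kg cow (1361 CPM), the same cows in which TLR10 and TLR6 were lowest and highest. Without the 43 and 47.4 kg cows, r was 0.784 (permutation p = 8e-05). TLR6 had an r of 0.559 with the same score (permutation p = 0.00953, adjusted p = 0.0613) and a rho of 0.653 (permutation p = 0.00236, adjusted p = 0.0425), and thus passed the test by rank only. After regression on the B cell score, the r of TLR6 and TLR10 was 0.892 (adjusted p = 0.00018, permutation test). TLR10 also correlated with the plasmacytoid dendritic cell list (r = 0.720, permutation p = 0.00033, adjusted p = 0.00495), whose genes SPIB, BCL11A and TCF4 are expressed by B cells too. Its r with the T cell score was -0.603 (permutation p = 0.00534, adjusted p = 0.0401), and this call was lost without TMM scaling (r = -0.564) and when any of 12 of the 20 cows was left out.

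**Figure D4:**
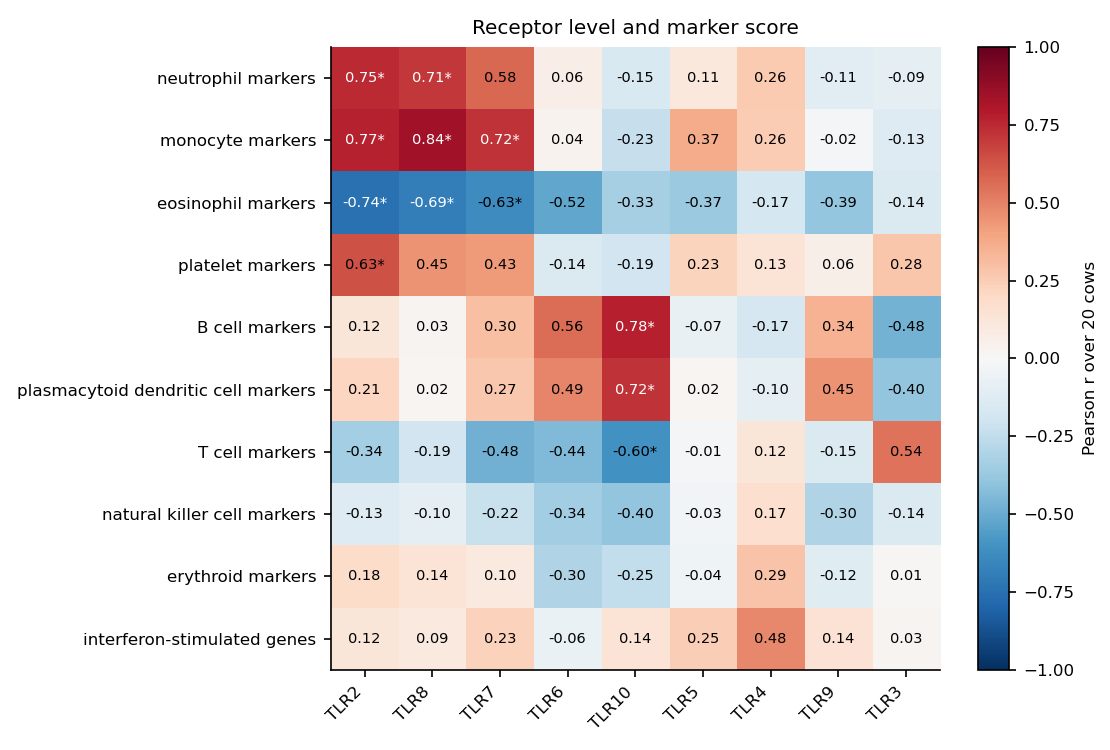
Pearson r over 20 cows of each receptor (horizontal axis, log2 CPM) with the mean z-score of each marker list (vertical axis), with an asterisk at an adjusted p below 0.05 over the 90 pairs. TLR2, TLR8 and TLR7 have positive values with monocyte markers (0.722 to 0.842), and TLR10 has 0.778 with B cell markers.

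TLR3, TLR4, TLR5 and TLR9 passed the test with none of the 10 lists. TLR9, which B cells and plasmacytoid dendritic cells express, had an r of 0.345 with the B cell score and 0.450 with the plasmacytoid dendritic cell score. TLR4 had an r of 0.264 with the neutrophil score and 0.258 with the monocyte score. With the score of 27 interferon-stimulated genes, whose sum ranged from 2190 CPM (72.5 kg) to 8021 CPM (30 kg), the largest r was that of TLR4, at 0.478, and TLR3 and TLR7 had 0.027 and 0.234.

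Of 19 pairs of a receptor and a protein that it is known to work with, 4 passed the test. TASL, the adaptor through which TLR7, TLR8 and TLR9 activate IRF5, had an r of 0.757 with TLR8 (permutation p = 0.00035, adjusted p = 0.00665) and of 0.671 with TLR7 (permutation p = 0.00126, adjusted p = 0.012), but 0.024 with TLR9. UNC93B1, the chaperone of the endosomal receptors, had an r of 0.613 with TLR7 (permutation p = 0.00393, adjusted p = 0.0187), 0.538 with TLR8 (adjusted p = 0.0517), 0.034 with TLR9 and -0.419 with TLR3. With the surface receptor TLR5, which was also among the 19 pairs, UNC93B1 had an r of 0.401 (permutation p = 0.078, adjusted p = 0.185). CD14, a co-receptor of TLR2 and TLR4 and also a monocyte marker, had an r of 0.641 with TLR2 (permutation p = 0.00238, adjusted p = 0.0151) and 0.345 with TLR4, whereas the rho was 0.510 with TLR2 and 0.552 with TLR4 (permutation p = 0.0223 and 0.0127, adjusted p = 0.072 for both). LY96, without which TLR4 does not bind lipopolysaccharide, had an r of 0.168 with TLR4. By rank, only TLR7 and TASL passed the test (rho = 0.678, adjusted p = 0.0277). Without the 46 and 56 kg cows, r was 0.348 for TLR8 and TASL (permutation p = 0.157). It was 0.385 for TLR7 and TASL (permutation p = 0.114) and 0.268 for TLR2 and CD14 (permutation p = 0.281). By Pearson r, these relations thus had a p above 0.05 without these cows. Whether the rho of TLR7 and TASL depends on them was not tested. For TLR4, leaving out the 2 cows farthest from the median of the partner raised r to 0.601 with CD14 and 0.476 with LY96. It lowered r with TICAM2 from 0.426 to 0.233 and with TIRAP from -0.165 to -0.181. With all cows, none of these TLR4 pairs passed the test. TLR7 and UNC93B1 kept an r of 0.498 (permutation p = 0.0371) without the 50 and 56 kg cows.

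The genes most like each receptor were taken as the 3 with the highest r over the 20 cows. For TLR2 these were CTNNA1, a catenin of cell junctions (0.905), CYRIA, a regulator of the actin cytoskeleton (0.880), and A2M, a protease inhibitor (0.873). For TLR7 they included TFEB, the transcription factor of lysosome genes (0.899), and JUN, a subunit of AP-1 (0.873). For TLR8 they were ZFP36L1, which promotes mRNA decay (0.864), SLC15A3, a lysosomal peptide transporter (0.847), and TNS3, a tensin (0.846). TNS3 was also among the 10 genes most like TLR2 and TLR7. For TLR6, TLR10 was followed by UVRAG, an autophagy protein (0.889), and the transcription factor MEF2C (0.866). For TLR10 they were the uncharacterized LOC132343486 (0.916), B4GALT6, a glycolipid synthase (0.911), and BRDT, a bromodomain protein (0.909), and the B cell gene FCRL1 was number 8 (0.875), named here after its value was seen. The highest values were lower for the other receptors: SLC25A3 (0.803) and LOC536660 (0.766) for TLR3, CACNA1H (0.746), GPATCH1 (0.740) and SELPLG (0.730) for TLR4, PLPP5 (0.803), SEC14L2 (0.793) and RAB7B (0.792) for TLR5, and CLIP1 (0.729), CFAP20 (0.717) and ZNF654 (0.701) for TLR9. LOC536660 had a median of only 0.076 CPM.

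The association with calf BW was tested last, as the slope of each gene on BW in 19 cows. All 9 receptors had a negative slope, those of TLR6 and TLR10 turning positive in some alternative settings, and TLR5 was the 1 receptor with an unadjusted p below 0.05, where 13.9% of all genes tested had such a p (7.08% with a negative and 6.78% with a positive slope). No receptor had an FDR below 0.05 by edgeR's quasi-likelihood test or by DESeq2. By edgeR, 0% of the 16206 genes tested had such an FDR, and 2247 genes had an unadjusted p below 0.05. By DESeq2, 189 of 15478 genes had such an FDR (1.22%). Over all genes tested, 53.4% had a negative slope. The median slope was -0.0066 log2 units per kg for the 5 surface receptors and -0.0078 for the 4 endosomal receptors, against -0.00072 for all genes tested.

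TLR5 had a slope of -0.025 ± 0.0088 log2 units per kg (SE, n = 19; edgeR p = 0.0108, FDR = 0.22). Over the 26 kg between the lightest and the heaviest calf, this slope corresponds to a ratio of 0.642 (95% confidence interval 0.462 to 0.892). The 3 highest cows were the 37, 36 and 45 kg cows, with 7.28, 6.98 and 6.72 CPM, and the 3 lowest the 53, 46 and 56 kg cows, with 2.56, 3.67 and 3.73 CPM. By DESeq2 the slope was -0.024 (p = 0.00787, FDR = 0.151). The unadjusted edgeR p stayed below 0.05 in all 19 fits that left out 1 cow, with slopes from -0.028 to -0.019, the latter without the 53 kg cow. With the monocyte score as a covariate it was -0.021 (edgeR p = 0.028, unadjusted).

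TLR8 had a slope of -0.012 ± 0.0069 (SE; edgeR p = 0.0996, FDR = 0.469), TLR2 of -0.0089 ± 0.0057 (p = 0.132, FDR = 0.519) and TLR7 of -0.0081 ± 0.0048 (p = 0.108, FDR = 0.486). These 3 did not pass the test. With 1 cow left out, their slopes ranged from -0.015 to -0.0073 for TLR8, from -0.012 to -0.0048 for TLR2 and from -0.012 to -0.0041 for TLR7. Without the 56 kg cow they were -0.0073, -0.0048 and -0.0041, and with the monocyte score as a covariate -0.0054, -0.0038 and -0.0042. With the neutrophil score as a covariate they were -0.0083, -0.0059 and -0.0063. The interferon-stimulated gene score as a covariate gave steeper slopes, of -0.014, -0.011 and -0.0082. All 6 monocyte markers had a negative slope as well (0 with an unadjusted edgeR p below 0.05), as did 6 of the 7 neutrophil markers and 53.4% of all genes tested. The eosinophil markers IL5RA and SMPD3 both had a positive slope with an unadjusted edgeR p below 0.05, as did 6.78% of all genes tested. The part of these markers in the slopes of the receptors was not tested beyond these covariates. TLR4 had a slope of -0.0066 ± 0.0045 (p = 0.16, FDR = 0.557), TLR9 of -0.0076 ± 0.0093 (p = 0.421, FDR = 0.771) and TLR3 of -0.0033 ± 0.0054 (p = 0.544, FDR = 0.836). The slope of TLR4 was -0.0033 with the interferon-stimulated gene score as a covariate and -0.0042 without the 54 kg cow, and that of TLR3 was -0.00078 without the 55 kg cow. TLR6 and TLR10 had slopes near 0, at -0.00076 ± 0.0038 and -0.00087 ± 0.0073 (p = 0.844 and 0.907, FDR of at least 0.956). With all 20 cows, TLR4 (slope -0.009, edgeR p = 0.0198), TLR5 (-0.016, p = 0.0254), TLR2 (-0.0089, p = 0.0428) and TLR7 (-0.0073, p = 0.0463) had an unadjusted p below 0.05, where 13.4% of all genes did, and their FDR lay between 0.286 and 0.365.

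**Figure D5:**
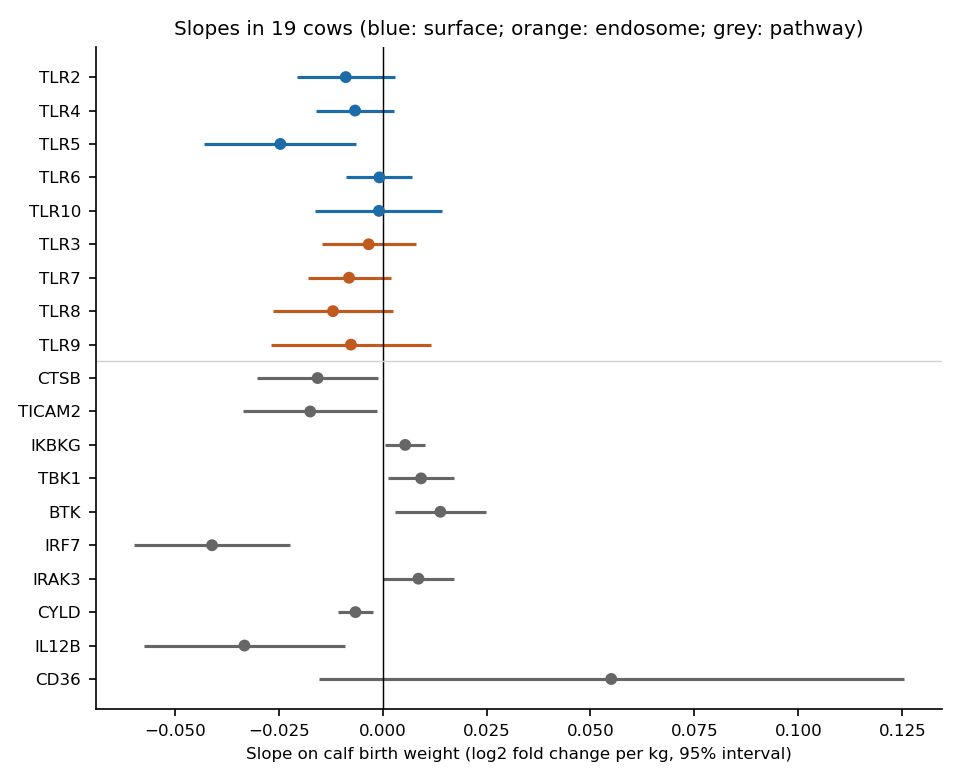
Slope on calf BW in 19 cows (log2 fold change per kg, points) with 95% intervals (lines) for the 9 receptors, colored by location, and for the named genes of the pathway (grey). Only TLR5 among the receptors has an interval that leaves out 0, and IRF7 has the lowest slope shown (-0.041).

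The genes around the receptors were taken from a list of 61 genes of the pathway, of which 58 were tested, and LBP, CTSL and IL6 had too few counts. An unadjusted p below 0.05 was found for 9 of the 58 genes, 5 with a negative and 4 with a positive slope, which is near the 13.9% of all genes. Slopes were negative for 42 of the 58 genes, against 53.4% of all genes tested, with a median of -0.0037, against -0.00072. Whether these 58 genes differ in direction from all genes was not tested. None had an FDR below 0.05 by edgeR, and 1 had an FDR below 0.1, IRF7, the interferon regulatory factor that TLR7 and TLR9 activate, where 0.315% of all genes did. Its slope was -0.041 ± 0.009 (SE, n = 19; edgeR p = 0.000174, FDR = 0.0976; DESeq2 FDR = 0.00926). Without the 30 kg cow it was -0.023 (unadjusted edgeR p = 0.00305). IRF7 is itself an interferon-stimulated gene, and 26 of the 27 genes of that list had a negative slope. Of these, 20 had an unadjusted edgeR p below 0.05, where 7.08% of all genes tested had a negative slope with such a p. The 30 kg cow had the highest score of the list, at 3.015, followed by the 37 kg cow at 0.551. How many genes keep such a p without the 30 kg cow was not tested. With the score of that list, which includes IRF7 itself, as a covariate, the slope of IRF7 was -0.017 (unadjusted edgeR p = 0.013). IRF7 was the only one of 10 transcription factors with such a p, and 9 of the 10 had a negative slope.

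Of the other roles in the pathway, all 7 genes of receptor trafficking and processing had a negative slope, against 53.4% of all genes tested. Among them, CTSB, a cathepsin of the endosome, had a slope of -0.016 ± 0.007 (edgeR p = 0.0363, FDR = 0.322). Without the 56 kg cow, CTSB had a slope of -0.01 (p = 0.148). Among 7 adaptors, 6 had a negative slope, with TICAM2, the adaptor between TLR4 and TICAM1, at -0.017 ± 0.0078 (p = 0.0358, FDR = 0.32). The kinases and ubiquitin ligases were divided, with 8 negative and 9 positive slopes. The positive ones included BTK, a kinase of B cells and myeloid cells, at 0.014 ± 0.0053 (p = 0.0154, FDR = 0.248), TBK1, the kinase of IRF3, at 0.0093 ± 0.0039 (p = 0.0256, FDR = 0.283), and IKBKG, a subunit of the IkappaB kinase complex, at 0.0054 ± 0.0023 (p = 0.0277, FDR = 0.29). Without the 56 kg cow, BTK had a slope of 0.0084 (p = 0.113) and TBK1 of 0.005 (p = 0.18), and without the 54 kg cow, IKBKG had 0.0044 (p = 0.0789) and TICAM2 -0.011 (p = 0.0995). Of 7 inhibitors, 5 had a negative and 2 a positive slope. CYLD, a deubiquitinase, had a slope of -0.0065 ± 0.0021 (p = 0.00466, FDR = 0.182) and IRAK3, a kinase-like inhibitor of MYD88 signaling, 0.0086 ± 0.0041 (p = 0.0477, FDR = 0.355). With each of the 19 cows left out in turn, the p of IRAK3 stayed below 0.05 in 7 cases. Of 7 cytokine and chemokine outputs, 5 had a negative slope, and IL12B had a slope of -0.033 ± 0.012 (p = 0.00929, FDR = 0.214). Among the 3 co-receptors, 2 had a negative slope, and CD36 had the smallest p, with a slope of 0.055 ± 0.034 (p = 0.119, FDR = 0.501).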

How the data were processed

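Whole blood of 20 recipient cows was sequenced with 1 library per cow, each from a separate animal. For the library kit, the study gives Truseq-stranded and the labels give SMARTer Stranded. Per the submitters' processing notes, the tools were FastQC 0.11.9, Trimmomatic, STAR 2.7.0b and featureCounts of Subread 2.0.3, and the study names bosTau9 as the genome. The authors deposited raw counts for each Entrez gene, without normalization. The strand setting and the handling of reads of several genes are not given in the sources used here. Symbols came from an NCBI cattle gene table of another build (ARS-UCD2.0), so no coordinates are given.

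The slope on BW came from the quasi-likelihood test of edgeR 4.0.16 in R 4.3.3 with TMM scaling, fitted in 19 cows to the 16206 genes that reached 10 counts in 5 or more of them. Adjustment by Benjamini-Hochberg (FDR) covered all of these genes. Log2 CPM with a prior count of 2 over 20 cows gave the correlations, with two-sided permutation tests of 100000 resamples. Each correlation at an adjusted p below 0.05 was repeated without the 2 cows farthest from the median of one measure. Alternatives were DESeq2 1.42.0, voom of limma 3.58.1, other size factors, count filters, all 20 cows, ranks of BW, covariates (total count, marker scores) and leaving out each cow. Monocyte and platelet scores as covariates, residuals on the monocyte and B cell scores, DESeq2 with 20 cows, the receptor and cofactor pairs and the counting error were added after seeing the data. On simulated counts for 16206 genes in 19 cows, with 200 changed by 0.06 log2 units per kg, edgeR recovered 76% of them with 5.59% of its calls false. The simulated slope was steeper than that of any receptor (at most -0.0246, TLR5). Recovery of slopes as shallow as those of the receptors was therefore not tested.

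The receptors and lists were chosen with earlier results of these data known. Lists comprised the pathway by role (co-receptors, trafficking, adaptors, kinases, transcription factors, inhibitors, outputs) and markers of neutrophils, monocytes, B cells, T cells, natural killer cells, plasmacytoid dendritic cells, eosinophils, platelets, erythroid cells and interferon response. Named were all receptors, pathway genes with an unadjusted p below 0.05 or the smallest p of their list, and the 3 genes most correlated with each receptor, of which some are not reported here. The counting error is that of independent reads. The labels name no sequencing batch. Correlations were computed in Python 3.11.15 with scipy 1.17.1, numpy 2.4.6 and pandas 2.3.3, and plots were drawn by matplotlib 3.10.9.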

Additional observations from a re-analysis of the deposited data

How the results depend on the processing

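The number of genes with an FDR below 0.05 was 0 by edgeR, 189 by DESeq2, 147 with any count in any cow, 4 with all 20 cows, 1 with the total count as a covariate and 151 by DESeq2 with all 20 cows, and 0 to 34 with 1 cow left out (34 without the 32 kg cow). Receptors with an unadjusted p below 0.05 numbered 1, and 4 with all 20 cows by edgeR and by DESeq2. With 1 cow left out there were 1 to 2, TLR7 being added without the 32 kg cow and TLR8 without the 55 kg cow. For pathway genes these values were 9, 14, 14 and 7 to 15, with 15 without the 32 kg cow. The cause of these differences was not tested. The slope of TLR6 turned positive with all 20 cows (0.0021), with the B cell score as a covariate (0.00019) and by DESeq2 with all 20 cows (0.00199), and ranged from -0.0027 to 0.0012 with 1 cow left out. That of TLR10 turned positive by voom (0.00058), with all 20 cows (0.0031), with the B cell score (0.0026) or the interferon-stimulated gene score (0.0032) as a covariate and by DESeq2 with all 20 cows (0.00302), and ranged from -0.0052 to 0.00302 with 1 cow left out. Correlated pairs of receptors numbered 4, also with each cow left out (4 to 4), and 2 as residuals on the monocyte score. Correlated pairs of a receptor and a marker list numbered 12, and 6 to 14 with 1 cow left out, with 6 without the 56 kg cow. The other 7 receptors kept a negative slope under every setting tried. No paired analysis was possible because all cows belonged to 1 group. TLR5 and TLR9 had the fewest counts, and counting error was largest relative to the spread between cows for TLR3, at a ratio of 0.429.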

Other observations

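The natural killer cell and erythroid scores passed the test with no receptor. For the natural killer cell score, r lay between -0.397 (TLR10) and 0.169 (TLR4), and for the erythroid score between -0.297 (TLR6) and 0.289 (TLR4). Single markers of these lists went opposite ways and were not tested. With TLR7, r was 0.693 for KLRB1 and -0.576 for NKG7, and 2 of 7 natural killer cell markers were positive. With TLR2, r was 0.613 for ALAS2 and -0.725 for GATA1, and 4 of 7 erythroid markers were positive. TLR3 had its largest r with the T cell score, at 0.541 (permutation p = 0.0174, adjusted p = 0.104), and its lowest with the B cell score, at -0.476 (permutation p = 0.0326, adjusted p = 0.148). The corresponding Spearman values were 0.226 and -0.350.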
